A study of Rattus norvegicus with 6 samples.

Results

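The genes described here are 45 cell cycle and proliferation genes, measured as messenger RNA in rat heart. They were chosen by symbol from knowledge of the cell cycle and not by a threshold on measured values. Earlier results of these data were known when the genes, their phases and the further lists were chosen. All 45 symbols were present among the 17487 symbols of the count table. They were sorted by the phase of the cell cycle in which their products mainly act: 12 G1 genes, 11 S-phase genes, and 22 genes of G2 and mitosis (G2/M), the last including Mki67, Stmn1 and Hmgb2, which mark proliferating cells in general. The samples were bulk heart tissue from 6 adult male Wistar rats, with 1 library per animal. The doxorubicin group (n = 3) had received the anthracycline drug doxorubicin hydrochloride at 3.75 mg/kg into a tail vein once a week for 4 weeks. The control group (n = 3) had received 0.9% sodium chloride in place of the drug. The labels gave no region of the heart, no interval between the last injection and collection, and no batch. The single comparison asked which transcripts differ in the heart after repeated doxorubicin.

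A cell that enters the cycle first makes D-type cyclins, which with Cdk4 and Cdk6 inactivate the retinoblastoma protein and free E2F factors. E2F factors drive the genes of DNA replication, and a later wave of genes, many with a CHR element (cell cycle genes homology region) and CCAAT boxes in their promoters, builds the mitotic machinery. Most cardiomyocytes of the adult heart have left the cycle, and the cycling cells of the tissue are largely endothelial cells, fibroblasts and immune cells. In bulk tissue, fewer cells of a type and less RNA per cell cannot be told apart.

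The 6 libraries held 2219685 to 3508282 counts. Levels are given as CPM, read counts divided by a library size that was adjusted by the trimmed mean of M-values (TMM). Where 3 values are given for a group, they are its libraries 1, 2 and 3 in that order. A level of 3 counts corresponds to 0.852 to 1.33 CPM depending on the library. Control library 1 stood apart on the first principal component, at -43.3 against -4.83 to 26.6 for the other 5. As a check of the labelled tissue, all 10 cardiomyocyte markers examined were detected, with a summed level of 139140 to 166660 CPM in control and 115420 to 130010 CPM in doxorubicin libraries. The labels call the libraries of a group biological replicates, and the p-values measure the spread between these 6 libraries.

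The promoters of 4 genes are printed as examples of the elements named above. They are those of the G2/M genes with a CHR and the S genes with an E2F motif that had the smallest p, 2 of each. A promoter was taken as the 250 bases before the annotated start site in RefSeq on build GRCr8, which is not the build named by the submitters, and 34 of the 45 genes had one. The motifs, searched on both strands, were the E2F motif (TTTGGCGC, TTTCCCGC, TTTGCCGC or TTTCGCGC), the CHR (TTTGAA or TTCGAA) and the CCAAT box (CCAAT). Overlapping matches were allowed. The E2F motif was in 1.73% of all 33469 promoters in the table, the CHR in 17.4% and the CCAAT box in 34.0%. Among the G2/M genes, 9 of 18 promoters held a CHR, 15 of 18 a CCAAT box and 2 of 18 an E2F motif. Among the S genes, 5 of 9 held an E2F motif, 3 of 9 a CHR and 6 of 9 a CCAAT box. None of the 7 G1 promoters held an E2F motif or a CHR in this window, and 3 of the 7 held a CCAAT box. These are matches of letters and say nothing about binding. The capitals mark the CHR in the promoters of Cdk1 (chr20:19265043-19265292, plus strand) and Mki67 (chr1:199952594-199952843, minus strand), each with 2 matches, and the E2F motif in those of Mcm5 (chr19:13488563-13488812, plus strand) and Mcm6 (chr13:42404353-42404602, minus strand), with 3 and 2 matches. All are written 5′ to 3′ along the gene.
Cdk1: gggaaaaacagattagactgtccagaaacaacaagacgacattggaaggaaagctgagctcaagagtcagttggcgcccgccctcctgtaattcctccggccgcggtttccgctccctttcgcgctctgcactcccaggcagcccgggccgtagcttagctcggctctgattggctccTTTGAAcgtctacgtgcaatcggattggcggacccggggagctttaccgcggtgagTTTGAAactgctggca
Mki67: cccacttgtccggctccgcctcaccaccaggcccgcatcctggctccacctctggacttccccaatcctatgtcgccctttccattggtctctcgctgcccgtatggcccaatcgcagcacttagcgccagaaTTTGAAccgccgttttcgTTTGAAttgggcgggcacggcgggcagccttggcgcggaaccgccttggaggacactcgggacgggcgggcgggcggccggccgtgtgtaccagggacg
Mcm5: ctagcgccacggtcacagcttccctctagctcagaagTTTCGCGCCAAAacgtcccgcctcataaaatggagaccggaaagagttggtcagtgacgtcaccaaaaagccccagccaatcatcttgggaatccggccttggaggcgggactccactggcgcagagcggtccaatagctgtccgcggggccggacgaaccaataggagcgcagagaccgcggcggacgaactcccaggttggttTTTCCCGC
Mcm6: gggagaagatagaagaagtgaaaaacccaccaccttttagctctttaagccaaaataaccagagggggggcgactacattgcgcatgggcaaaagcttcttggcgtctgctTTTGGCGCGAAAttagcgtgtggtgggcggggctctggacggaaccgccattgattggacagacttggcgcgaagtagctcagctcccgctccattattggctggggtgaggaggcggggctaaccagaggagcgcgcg

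With edgeR's quasi-likelihood test 0 of the 30 genes with enough counts to be tested had an adjusted p under 0.05, against 0.0543% of all 9205 symbols tested. At an unadjusted p under 0.05 there were 6 of 30 genes, 1 with a positive and 5 with a negative log2 fold change, against 8.10% of all symbols (4.00% positive and 4.11% negative). The positive one was the G1 cyclin gene Ccnd2, and the negative ones were Tk1 in S phase and Mki67, Cdk1, Stmn1 and Prc1 in G2/M. DESeq2, another count test, called 1 of the 43 genes that had any counts, Ccnd2 (adjusted p = 0.0326), against 0.567% of the 13048 symbols with a p-value. It gave no adjusted p to Ccne1, Rrm2 and Ect2. With limma voom 0 of 30 were called, and 6 had an unadjusted p under 0.05, against 0 and 740 of all 9205 symbols.

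The filter on low counts bears on these numbers. It removed 13 genes that had counts, and a gene such as Cdk1 passed it through its 3 control libraries with 0 doxorubicin libraries past the same level. The direction of the group means was therefore also counted without a filter, a count chosen after the data were seen. Many G2/M genes shared differences between libraries, described below, so these genes are not independent of each other. Of the 21 G2/M genes with counts, 20 had a lower mean CPM in doxorubicin than in control hearts, against 45.9% of all 13050 symbols with counts. The figures were 7 of 11 for S genes and 8 of 11 for G1 genes. All 3 doxorubicin values lay below all 3 control values for 7 of the 21 G2/M genes, 2 of the 11 S genes and 0 of the 11 G1 genes, against 5.94% of all symbols with counts. The opposite pattern was seen in 1 G1 gene, Ccnd2, and in 0 genes of the other phases, against 5.87%. These counts use TMM-scaled CPM. With counts divided by total counts alone, the groups of Mki67 and Prc1 overlapped. The share over all symbols was not counted for that scaling. Without control library 3 the number of G2/M genes with a lower mean was 17 of 21. It was 19 or 20 when any other library was left out.

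**Figure D1:**
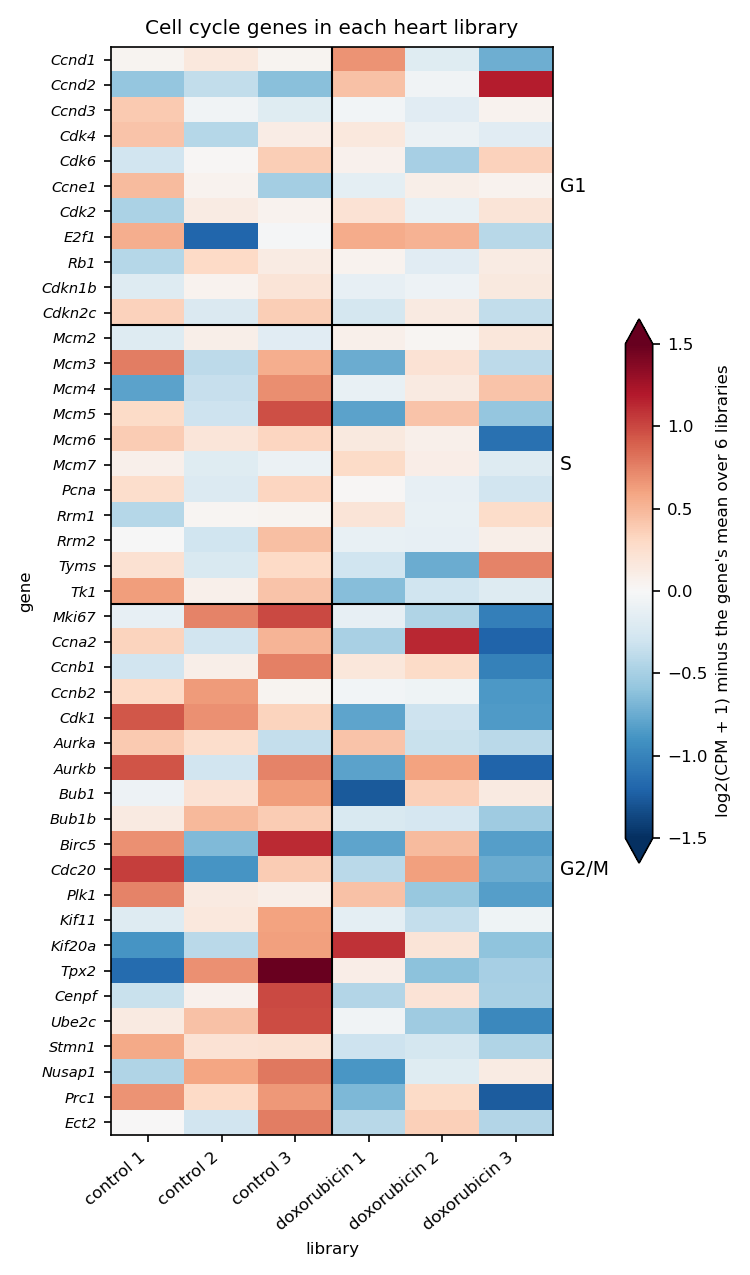
Level of the 43 genes with counts in each of the 6 libraries, as log2(CPM + 1) minus the gene's mean over the libraries. Rows are genes grouped by phase and columns are libraries, with red above and blue below the gene's mean. In the G2/M block blue prevails on the doxorubicin side, most in doxorubicin library 3, and Ccnd2 is the G1 gene with the reverse pattern.

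Summed levels give each gene its weight in reads. The 12 G1 genes together stood at 722, 641 and 643 CPM in control and at 740, 595 and 671 CPM in doxorubicin libraries. The 11 S genes together stood at 194, 176 and 221 CPM in control and at 194, 183 and 187 CPM in doxorubicin libraries. For both phases the groups overlapped. The 22 G2/M genes together stood at 166, 147 and 181 CPM in control and at 110, 117 and 80.8 CPM in doxorubicin libraries, with no overlap. Stmn1 made up much of that sum, and without it the values were 70.3, 72.4 and 105 CPM in control and 58.1, 63.0 and 33.6 CPM in doxorubicin libraries. In these TMM-scaled values the groups again did not overlap, and the highest doxorubicin and lowest control values lay close together. Divided by total counts alone, the groups without Stmn1 overlapped. Control library 1 held 184 of 2943015 counts and doxorubicin library 2 held 202 of 3126626. These sums were not tested.

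**Figure D2:**
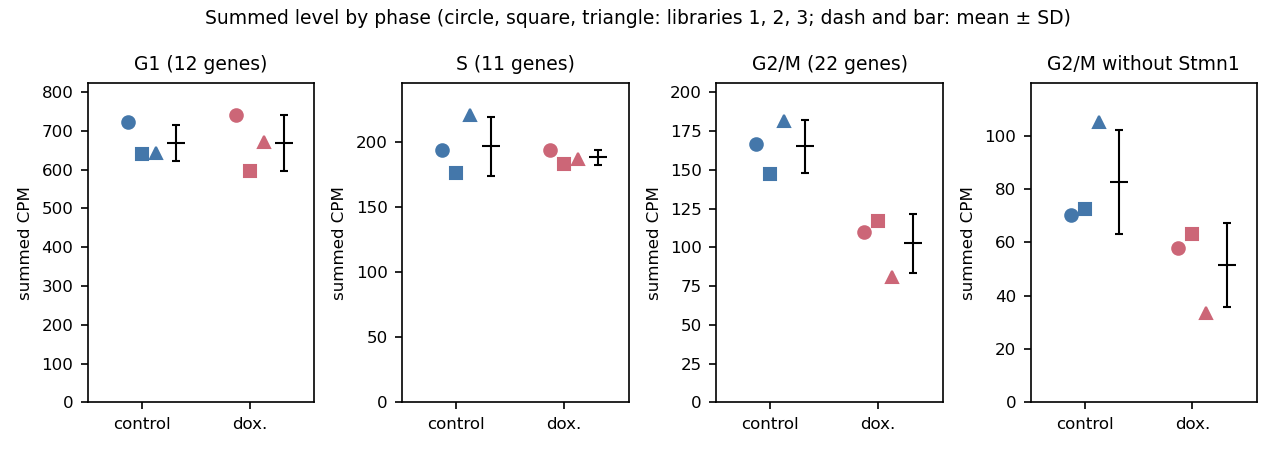
Summed CPM of the G1, S and G2/M genes, and of the G2/M genes without Stmn1, in each control and doxorubicin library, with the mean and SD (n = 3) beside the points. Only the 2 G2/M panels show separate groups, at a mean of 165 against 103 CPM with Stmn1 and 82.7 against 51.6 CPM without it. Without Stmn1 the groups overlap if counts are divided by total counts alone.

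Among the D cyclins, the sensors that link growth signals to the cycle, only Ccnd2 stood apart between the groups. Ccnd2 had 70, 70 and 91 counts in control against 172, 124 and 313 counts in doxorubicin libraries, which is 26.7, 31.1 and 25.8 CPM against 55.2, 38.7 and 92.3 CPM. The 3 control hearts lay close together and each doxorubicin heart lay above them, with library 3 the highest. The means were 27.9 ± 2.81 and 62.1 ± 27.4 CPM (SD, n = 3). The corresponding log2 fold change was 1.16 (SE 0.28, adjusted p = 0.167 over all symbols by edgeR's quasi-likelihood test, higher in 3 of 3 hearts). Leaving out doxorubicin library 3 gave a log2 fold change of 0.77, and leaving out library 2 gave 1.42 with an edgeR adjusted p of 0.033. Over the 14 alternative settings the adjusted p ranged from 0.0227 to 0.599, and 3 settings put it past the threshold.

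Ccnd1 had 326, 304 and 436 counts in control and 601, 342 and 245 counts in doxorubicin libraries, or 124, 135 and 124 CPM against 193, 107 and 72.2 CPM. The control hearts were alike, while the doxorubicin hearts lay on both sides of them. Its log2 fold change was -0.045 (SE 0.28), and it changed sign with the scaling and with the libraries used. In doxorubicin library 3, the heart with the highest Ccnd2, Ccnd1 was at its lowest. Ccnd3 had 822, 519 and 745 counts in control and 727, 681 and 843 counts after doxorubicin, and its groups overlapped, with a log2 fold change of -0.12 (SE 0.19). Ccnd2 accordingly took a larger share of the counts of the 3 D cyclins. In the controls that share was 5.75% (4.57 to 7.2), 7.84% (6.25 to 9.79) and 7.15% (5.86 to 8.70). The doxorubicin hearts reached 11.5% (9.95 to 13.2), 10.8% (9.14 to 12.7) and 22.3% (20.2 to 24.6). On average the share was 6.91% ± 1.07 and 14.9% ± 6.48 (SD, n = 3), and the groups did not overlap. The ranges in parentheses are Wilson intervals at 95% confidence and cover counting error only.

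The partners of the D cyclins showed no such separation. Cdk4 had 136 to 311 counts per library and a log2 fold change of -0.11 (SE 0.22), and Cdk6 had 8 to 19 counts and a log2 fold change of -0.07 (SE 0.46). Cdk2, the kinase of cyclin E and cyclin A, had 23 to 49 counts and a log2 fold change of 0.19 (SE 0.30). Of the cyclin E genes, Ccne1 had 1 to 4 counts in each library. Ccne2, from the list of further cell cycle genes, had 17, 33 and 44 counts in control and 52, 44 and 23 counts in doxorubicin libraries, with overlapping groups and a log2 fold change of 0.14 (SE 0.39). Rb1, the gene of the retinoblastoma repressor, had 87 to 174 counts per library. It averaged 46.2 ± 11.7 CPM in control hearts against 45.3 ± 4.83 CPM after doxorubicin (SD, n = 3). E2f1, which the repressor restrains, had 10, 1 and 8 counts in control and 12, 12 and 5 counts in doxorubicin libraries.

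Of the 3 inhibitors of cyclin-dependent kinases, Cdkn1b (p27) had 225, 230 and 396 counts in control and 282, 298 and 369 counts in doxorubicin libraries. Its levels were 100.2 ± 13.4 and 97.4 ± 9.90 CPM (SD, n = 3), with overlapping groups. Cdkn2c (p18), an inhibitor of Cdk4 and Cdk6, had 27, 15 and 37 counts in control and 20, 28 and 20 counts in doxorubicin libraries, a log2 fold change of -0.40 (SE 0.36). Cdkn1c (p57) was listed at 0 in all 6 libraries, over 3 rows of the table. A count of 0 allows up to 0.852 to 1.33 CPM, but how the reads of these rows were assigned was not stated.

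**Figure D3:**
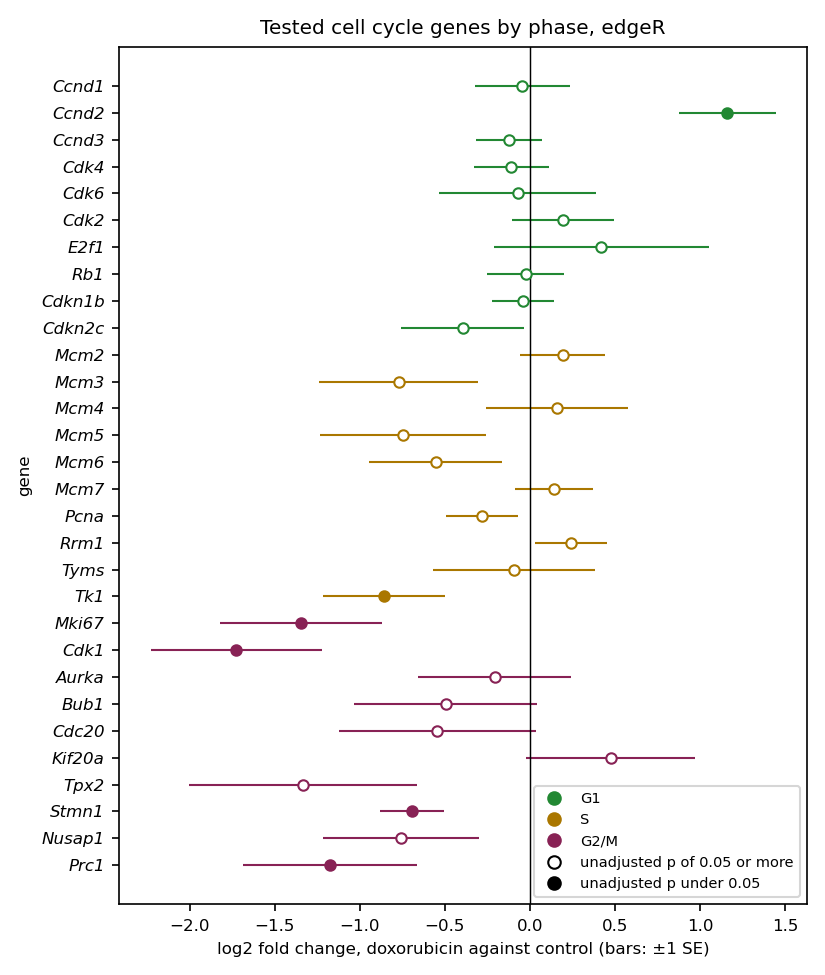
Log2 fold change of doxorubicin against control for the 30 tested genes, with bars of 1 standard error, from edgeR. Genes are rows coloured by phase, and filled points have an unadjusted p under 0.05. G1 points other than Ccnd2 lie between -0.40 and 0.42, S points lie on both sides of 0, and 9 of the 10 tested G2/M points lie below 0 (47.9% of all tested symbols do), where the 4 filled ones are found.

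In S phase, the 6 subunits of the replicative helicase, Mcm2 to Mcm7, which unwinds DNA ahead of the replication fork, had fold changes on both sides of 0. Their summed level was 78.7, 68.9 and 88.6 CPM in control and 77.4, 82.1 and 67.8 CPM in doxorubicin libraries. Log2 fold changes were positive for Mcm2 (0.19), Mcm4 (0.16) and Mcm7 (0.14) and negative for Mcm3 (-0.77), Mcm5 (-0.75) and Mcm6 (-0.56). In edgeR 0 of the 6 had an unadjusted p under 0.05. Counts per library were 41 to 69 for Mcm2, 8 to 27 for Mcm3, 12 to 52 for Mcm4 and 9 to 43 for Mcm5. Mcm7, with the most counts of the 6, had 79, 56 and 94 counts in control and 109, 98 and 84 counts in doxorubicin libraries. Mcm6 was the only helicase subunit whose groups did not overlap, with 31, 23 and 40 counts (11.8, 10.2 and 11.4 CPM) in control and 31, 30 and 12 counts (9.95, 9.36 and 3.54 CPM) in doxorubicin libraries. Doxorubicin libraries 1 and 2 lay just under the controls and library 3 far under them, and the edgeR adjusted p was 0.751. The log2 fold change of Mcm6 was -0.20 when doxorubicin library 3 was left out.

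Pcna, the sliding clamp that holds DNA polymerase on its template, had 150, 93 and 211 counts in control and 150, 140 and 132 counts in doxorubicin libraries. Its log2 fold change was -0.28 (SE 0.21), with overlapping groups. The genes of nucleotide supply differed in sign. Rrm1, the large subunit of ribonucleotide reductase, had 100, 119 and 188 counts in control and 185, 154 and 214 counts in doxorubicin libraries, a log2 fold change of 0.24 (SE 0.21). Its partner Rrm2, the subunit that is made in S phase, had only 1 to 5 counts in each library. Tyms, thymidylate synthase, had 17, 10 and 24 counts in control and 13, 9 and 33 counts in doxorubicin libraries.

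Tk1, the thymidine kinase of proliferating cells, was the S gene with the smallest p. It had 32, 18 and 37 counts in control and 14, 19 and 22 counts in doxorubicin libraries, which is 12.2, 8.0 and 10.5 CPM against 4.49, 5.93 and 6.48 CPM. All 3 doxorubicin hearts lay below all 3 controls. The log2 fold change was -0.86 (SE 0.36) with an edgeR adjusted p of 0.548 and an unadjusted p of 0.0309. The unadjusted p was under 0.05 in 7 of the 14 alternative settings, and it was 0.0603 with DESeq2. The Tk1 promoter held no E2F motif of the letters searched in its 250-base window.

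In G2/M, Stmn1, which encodes the microtubule-destabilizing protein stathmin, rested on the most counts. It had 252, 169 and 268 counts in control and 162, 172 and 160 counts in doxorubicin libraries, or 96.2, 75.1 and 76.1 CPM against 52.0, 53.7 and 47.2 CPM. The doxorubicin hearts lay close together and well below the controls. The means were 82.5 ± 11.9 and 50.9 ± 3.38 CPM (SD, n = 3). The log2 fold change was -0.69 (SE 0.19, edgeR adjusted p = 0.244, lower in 3 of 3 hearts). Over the alternative settings the fold change ranged from -0.75 to -0.56 and the adjusted p from 0.161 to 0.614. Stmn1 is also made in cells that do not divide.

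Cdk1, the kinase that drives entry into mitosis, had 17, 12 and 14 counts in control and 4, 7 and 4 counts in doxorubicin libraries. These are 6.49, 5.33 and 3.98 CPM against 1.28, 2.18 and 1.18 CPM, and all 3 doxorubicin hearts lay below all 3 controls, near the limit set by 3 counts. The log2 fold change was -1.73 (SE 0.50, edgeR adjusted p = 0.288), the largest in size among the 30 tested genes. Ccnd2, Stmn1 and Cdk1 were the genes whose unadjusted p stayed under 0.05 in all 14 alternative settings. These settings reuse the same libraries and are not independent support. Cdk1 also passed the filter on low counts only through its 3 control libraries, where it is higher.

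Mki67, whose protein Ki-67 is the usual stain for cycling cells, had 11, 19 and 36 counts in control and 13, 10 and 6 counts in doxorubicin libraries, or 4.20, 8.44 and 10.2 CPM against 4.17, 3.12 and 1.77 CPM. The groups were separated by the narrow gap between control library 1 and doxorubicin library 1. By total counts alone they overlapped, at 11 of 2943015 counts in control library 1 and 13 of 3070347 in doxorubicin library 1. Mki67 had a log2 fold change of -1.34 (SE 0.48, edgeR adjusted p = 0.439). Prc1, which bundles microtubules of the central spindle, had 19, 12 and 25 counts in control and 7, 17 and 4 counts in doxorubicin libraries, or 7.26, 5.33 and 7.10 CPM against 2.25, 5.30 and 1.18 CPM. Here doxorubicin library 2 lay next to control library 2, and the other doxorubicin hearts lay well below. By total counts alone the Prc1 groups overlapped, at 17 of 3126626 counts in doxorubicin library 2 and 12 of 2219685 in control library 2. Its log2 fold change was -1.18 (SE 0.51, edgeR adjusted p = 0.575). Leaving out doxorubicin library 2 gave -1.92 and leaving out doxorubicin library 3 gave -0.79, with unadjusted edgeR p-values of 0.00458 and 0.136.

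The cyclins that pair with Cdk1 had counts under the filter of the edgeR test. Ccnb2 had 5, 6 and 5 counts in control and 4, 4 and 1 counts after doxorubicin, and its CPM values of 1.91, 2.67 and 1.42 against 1.28, 1.25 and 0.295 did not overlap. Ccnb1 had 3, 4 and 12 counts in control and 6, 7 and 1 counts in doxorubicin libraries. Ccna2, the cyclin of S phase and G2, had 5, 2 and 8 counts in control and 2, 13 and 0 counts in doxorubicin libraries, so that its highest and lowest values were both in doxorubicin hearts. Fitted with no filter, the log2 fold changes were -1.03 for Ccnb2, -0.57 for Ccnb1 and -0.16 for Ccna2, with unadjusted edgeR p-values of 0.219, 0.449 and 0.852.

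Among the kinases and checkpoint genes, Aurka, the aurora kinase of the spindle poles, had 18, 14 and 13 counts in control and 22, 12 and 12 counts in doxorubicin libraries. Aurkb and Birc5 (survivin) encode partners in the chromosomal passenger complex. Aurkb had 9, 2 and 10 counts in control and 1, 8 and 0 after doxorubicin, and Birc5 had 7, 1 and 14 in control and 1, 7 and 1 in doxorubicin libraries. Both were low in control library 2 and in doxorubicin libraries 1 and 3. Plk1 had 3 to 12 counts per library. Of the spindle checkpoint kinases, Bub1 had 9, 10 and 22 counts in control and 3, 16 and 14 after doxorubicin, and its groups overlapped. Bub1b had 4, 5 and 7 counts in control and 3, 3 and 2 after doxorubicin, and its CPM values of 1.53, 2.22 and 1.99 against 0.963, 0.936 and 0.589 did not overlap. Cdc20 and Ube2c belong to the ubiquitin pathway that starts anaphase. Cdc20 had 25, 4 and 20 counts in control and 9, 22 and 7 in doxorubicin libraries. Ube2c had 8, 9 and 22 counts in control and 8, 5 and 3 after doxorubicin, and its CPM values of 3.05, 4.00 and 6.25 against 2.57, 1.56 and 0.884 did not overlap. Fitted with no filter, Ube2c had a log2 fold change of -1.42 (edgeR unadjusted p = 0.0239).

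The spindle and cytokinesis genes held the exception of the G2/M group. Kif20a, a kinesin of the dividing cell's midzone, had 11, 14 and 48 counts in control and 60, 32 and 18 counts after doxorubicin, and it was the only G2/M gene with counts whose mean was higher in doxorubicin, 11.5 ± 7.10 against 8.02 ± 4.97 CPM (SD, n = 3). Its groups overlapped widely, and without doxorubicin library 1 its log2 fold change was -0.11 against 0.47 with all libraries. Tpx2, a spindle assembly factor, had 2, 12 and 35 counts in control and 10, 5 and 6 in doxorubicin libraries, with the lowest value of all in a control heart. Nusap1, a microtubule-binding protein of the spindle, had 11, 22 and 40 counts in control and 9, 17 and 23 in doxorubicin libraries, a log2 fold change of -0.76 (SE 0.46). For Nusap1 this value was -0.46 without control library 3 and -0.49 without doxorubicin library 1. Kif11, Cenpf and Ect2 had 1 to 12 counts per library, with overlapping groups. Hmgb2, a chromatin protein abundant in cycling cells, was listed at 0 in all 6 libraries, on 1 row.

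**Figure D4:**
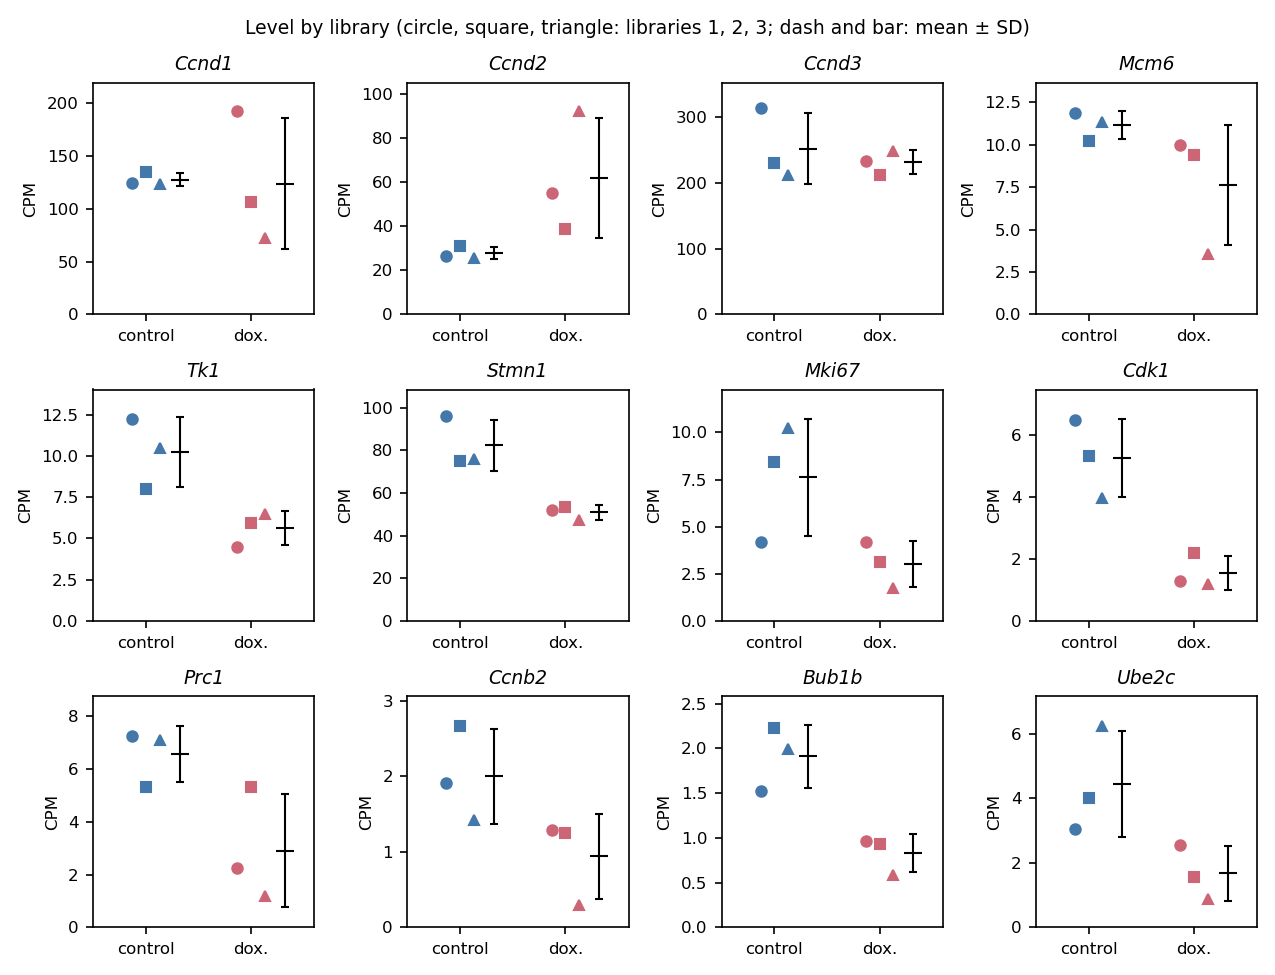
CPM in each library for the 10 genes whose groups did not overlap and, for comparison, Ccnd1 and Ccnd3, with the mean and SD (n = 3) beside the points. Each panel has its own linear axis starting at 0. Ccnd2 is the only one of these genes with all doxorubicin points on top, and for Mki67 and Prc1 the gap between the groups is narrow. That gap closes if counts are divided by total counts alone.

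Libraries differed within the groups in a way shared by many G2/M genes. Doxorubicin library 3 was the lowest of its group for 17 of the 21 G2/M genes with counts, and library 2 was the highest for 11. Among the controls, library 3 was the highest for 12. The same order was not counted over all symbols, so whether it is particular to these genes was not tested. The 13 genes with counts that were not tested held together 67, 47 and 124 counts in control and 48, 69 and 26 counts in doxorubicin libraries. Without control library 3, 3 genes of the 31 then tested had an unadjusted p under 0.05 (Ccnd2, Cdk1 and Stmn1), against 6.76% of all symbols tested in that setting. Without doxorubicin library 3 there were 4 of 32, the same 3 and Tk1, against 6.42%. The first of these counts lies near its background.

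Of 125 further cell cycle genes listed by function, 107 were in the table, 103 had counts and 44 were tested. With edgeR 0 of the 44 were past the adjusted threshold and 5 had an unadjusted p under 0.05, 1 higher and 4 lower. Over all symbols tested these shares were 0.0543% and 8.10% (4.00% higher and 4.11% lower), so that 5 of 44 lies near the background. DESeq2 called 0 of 103, and it gave no adjusted p to several of them, such as Pbk and Espl1. The mitosis genes of that list had a lower mean CPM in doxorubicin for 39 of the 48 with counts, and all doxorubicin values below all control values for 13 of 48, with 0 the other way. Over all symbols with counts these shares were 45.9% lower in mean, 5.94% without overlap and lower, and 5.87% without overlap and higher. The count of lower means was chosen after the data were seen. For the replication genes the numbers lower in mean and lower without overlap were 18 and 3 of 31, and for the regulators 14 and 3 of 24. With counts divided by total counts alone, the groups overlapped for the mitosis genes Kif23 and Cdca8 and the regulator Lin37. Of the 48 mitosis genes 12 passed the filter on low counts, and their median log2 fold change was -0.014 against 0.017 for all symbols tested, while over the 48 with no filter it was -0.93. The summed level of the mitosis genes overlapped between the groups, at 251 to 302 CPM in control and 240 to 261 CPM in doxorubicin libraries.

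The 5 further genes with the smallest p were Kif22, Racgap1, Fzr1, Cdkn1a and Cdc25b. Kif22, a chromosome-binding kinesin, had 16, 21 and 36 counts in control and 9, 11 and 2 in doxorubicin libraries, a log2 fold change of -1.89 (SE 0.52, edgeR adjusted p = 0.244). Racgap1, which acts with Ect2 in cytokinesis, had 16, 11 and 24 counts in control and 11, 7 and 6 in doxorubicin libraries. Its log2 fold change was -1.26 (SE 0.45, edgeR adjusted p = 0.451). In neither gene did the groups overlap in CPM. Fzr1, an activator of the ubiquitin ligase that keeps cells in G1, stood at 36.9 ± 3.01 and 25.7 ± 2.33 CPM (SD, n = 3). Its counts were 103, 85 and 118 in control and 73, 90 and 87 in doxorubicin libraries. The log2 fold change was -0.52 (SE 0.21, edgeR adjusted p = 0.543). Cdkn1a (p21), an inhibitor of cyclin-dependent kinases, averaged 204 ± 2.04 CPM in control hearts against 158 ± 8.02 CPM after doxorubicin (SD, n = 3), below the controls in all 3. It had 528, 462 and 722 counts in control and 476, 537 and 525 in doxorubicin libraries. Its log2 fold change was -0.37 (SE 0.17, edgeR adjusted p = 0.594). With no filter the unadjusted edgeR p was 0.070. Cdc25b, a phosphatase that activates Cdk1, had 127, 67 and 107 counts in control and 191, 112 and 233 in doxorubicin libraries. Its log2 fold change was positive, 0.60 (SE 0.28, edgeR adjusted p = 0.600), with overlapping groups. Top2a, the topoisomerase of dividing cells, had 9, 19 and 30 counts in control and 5, 23 and 13 in doxorubicin libraries. Foxm1, a regulator of mitotic genes, had counts under the filter, 6 to 14 per library.

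Marker genes of heart and blood cell types were read beside these values. The 10 macrophage markers, all with counts, summed to 264 to 276 CPM in control and 318 to 526 CPM in doxorubicin libraries. In log2 fold change 9 of the 10 were above 0, against 4798 of all 9205 symbols tested. For 2 of the 10 the groups did not overlap, both higher in doxorubicin, against 5.87% of all symbols with counts. The 10 endothelial markers summed to 1739 to 1972 and 1416 to 1870 CPM, with doxorubicin library 3 the lowest, and the 10 fibroblast markers to 2925 to 3279 and 2530 to 4155 CPM. The 10 smooth muscle and pericyte markers summed to 4717 to 6521 and 4667 to 4996 CPM. Of 10 lymphocyte markers 9 were in the table, with 57 to 93 counts in all per library. Of 10 erythroid and platelet markers 9 were in the table, Alas2 being at 0, and their sum was 2019 to 7321 CPM in control, highest in library 1, and 703 to 2673 CPM in doxorubicin libraries, with 7 of the 7 tested below 0. The cardiomyocyte sums given above did not overlap between the groups, with 8 of 10 markers below 0 in log2 fold change. Of all tested symbols 47.9% lay below 0. The part of these cell types in the cell cycle values was not tested.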

How the data were processed

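Messenger RNA libraries of 6 hearts were compared. The authors deposited raw read counts per gene symbol, and FastQC, Trimmomatic, STAR, HTSeq and the build mRatBN7.2 are named in the submitters' processing notes. The annotation, the counting mode and the use of strand were not given in the sources used here, so reads shared with paralogs, pseudogenes or overlapping genes may be missing or misplaced. The table held 18473 rows, and the rows of a symbol were summed. Of the genes described here, 44 stood on 1 row.

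Groups came from the sample titles. Treatment was the only term of the model, tested by quasi-likelihood in edgeR 4.0.16 under R 4.3.3, with TMM scaling, robust dispersion and filterByExpr (minimum count 10, minimum total 15), with Benjamini-Hochberg adjustment over the 9205 symbols kept and a threshold of 0.05. The standard error is the absolute log2 fold change over the square root of F. The script was tested on simulated counts. Alternatives were median-of-ratios factors, library size only, other filters, DESeq2 1.42.0, limma voom (limma 3.58.1), the replicate number as a block, symbols on 1 row, and leaving out each library. Total counts of 2219685 to 3508282 leave most G2/M genes with few counts, so that counting error is large. Full values are given for genes with an unadjusted p under 0.05, genes whose groups did not overlap, and the 3 highest of each phase. The 5 further genes with the smallest p, which include Cdkn1a, are given by counts or CPM with their fold change. The remaining genes, and Foxm1 and Top2a, are given by their counts or count range. Genes, phases and lists were chosen with earlier results of these data known. Tables, promoter searches and figures were made in Python 3.11.15 (pandas 2.3.3, numpy 2.4.6, matplotlib 3.10.9).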

Additional observations from a re-analysis of the deposited data

How the results depend on the processing

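Against 5 symbols past the adjusted threshold over all genes, library size only gave 0 (713 at an unadjusted p under 0.05), no filter 61, DESeq2 74, limma voom 0 (740 unadjusted), the replicate block 13 and symbols on 1 row 1, and leaving out each library gave 0 to 35. For the cell cycle genes, of which 30 to 43 were tested depending on the setting, the count of 0 became 1, always Ccnd2, with no filter, with DESeq2 and without doxorubicin library 2, so that leaving out each library gave 0 to 1, with 3 to 7 at an unadjusted p under 0.05 (531 to 895 of all symbols tested). For the further genes, of which 44 to 103 of 125 were tested, it was 0 in every alternative run. With the replicate block 0 of the 30 genes tested passed and 5 had an unadjusted p under 0.05, against 607 of all 9205 symbols. Same-numbered libraries did not deviate together (r of 0.021, -0.19 and -0.056 across genes for numbers 1, 2 and 3), and the labels describe no pairing of the animals.

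Near-zero values changed sign. With library size only, which shifted the median of all symbols on the log2 scale from 0.017 to 0.10, Ccnd1 became 0.033, Cdkn1b 0.037 and the median of the tested G1 genes 0.035, all still below that common shift. Leaving out each library gave -0.51 to 0.24 for Ccnd1, -0.24 to 0.072 for Ccnd3, -0.14 to 0.052 for Cdkn1b, -0.11 to 1.14 for Kif20a, and -0.071 to 0.066 for the G1 median (main value -0.043). The medians of the tested S genes (-0.19) and G2/M genes (-0.73) were -0.33 to -0.066 and -1.07 to -0.55 when each library was left out. The filter favours genes that are high in 1 group, and Cdk1, Mki67 and Prc1 passed it mainly or only through the controls, so these medians describe the tested genes alone. With no filter they were -0.28 over 11 S genes and -0.84 over 21 G2/M genes. The number of G2/M genes with a lower mean in doxorubicin was 17 to 20 of 21 without each library, and of further mitosis genes 34 to 40 of 48, which was chosen after the data were seen. The cause of these changes was not tested. Of the 43 genes with counts, 13 lay under the filter, and the part of depth in the number of calls was not tested.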
